A study of Rattus norvegicus with 10 samples.

Results

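The Zfp genes are the rows of the rat prefrontal cortex table whose symbol is Zfp followed by a number, with an optional letter and number behind it, and whose mean over the 10 libraries was at least 0.5 RPKM (reads scaled by gene model length and library total). This rule chose 247 of the 16041 rows, out of 254 rows with such a symbol. The 7 others lay under the level rule. The tissue came from 5 male Sprague-Dawley rats exposed to early life stress (ELS) and 5 male Sprague-Dawley control rats. In the ELS rats a limited nesting paradigm ran over postnatal days 2 to 9, and prefrontal cortex was collected from both groups at postnatal day 91, so the comparison is of adult cortex long after the exposure. Each library was made from poly(A) RNA of 1 rat's tissue, which holds neurons, glia and blood vessels together. Neither the litters of the rats nor any enrichment for a cell type is given in the labels.

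Most Zfp proteins carry C2H2 zinc fingers, small zinc-bound modules that are strung in tandem and read DNA bases. Many of those in mammals also hold a KRAB domain, which recruits the scaffold protein KAP1 (gene Trim28), the histone H3 lysine 9 methylase Setdb1 and HP1 proteins to silence transposable elements and imprinted loci. The symbol is shared by proteins that are not transcription factors: Zfp36 and Zfp36l1 carry CCCH fingers that bind AU-rich messenger RNAs and hand them to the CCR4-NOT deadenylase, Zfp91 and Zfp598 are ubiquitin ligases, and Zfp106 binds RNA. The set is therefore a family by name, not by 1 fold or 1 function.

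All 247 genes had reads in every library. Libraries held 18838898 to 20998749 reads in the ELS group and 19676642 to 22311136 reads in the control group, and the median Zfp gene had 205.5 reads per library, with medians of 21.5 to 7030.5 reads across the genes. Most of these genes were expressed at a low level. On the mean RPKM scale 11 genes reached 20 or more, 87 lay at 5 to 20, 133 at 1 to 5 and 16 at 0.5 to 1. Their median level was 3.89 RPKM, against 7.20 RPKM over the 14642 rows tested. At the lower edge of the rule, Zfp217 (0.618 RPKM), Zfp300 (0.549 RPKM) and Zfp772 (0.515 RPKM) were just inside, and Zfp819 (0.477 RPKM), Zfp296 (0.450 RPKM) and Zfp185 (0.424 RPKM) just outside.

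The highest level belonged to Zfp238, listed in RefSeq as Zbtb18, a repressor needed for cortical neuron development in mice, at 93.7 RPKM over all libraries. Zfp365, whose product binds the psychiatric risk protein DISC1, followed at 68.8 RPKM. Zfp706 stood at 55.1 RPKM and Zfp207, a spindle assembly factor also called BuGZ, at 37.5 RPKM. Zfp637 (31.2 RPKM) and Zfp180 (28.6 RPKM) came next, close to Zfp91 at 28.5 RPKM. The spread over libraries separated the top of this order only in part: in the ELS libraries Zfp238 ran between 84.9 and 108 RPKM, Zfp365 between 70.3 and 78.6 RPKM and Zfp706 between 53.4 and 56.5 RPKM, whereas in the control libraries Zfp238 (67.0 to 153 RPKM) and Zfp706 (50.7 to 64.5 RPKM) each overlapped with Zfp365 (43.2 to 71.8 RPKM) and not with each other.

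**Figure D1:**
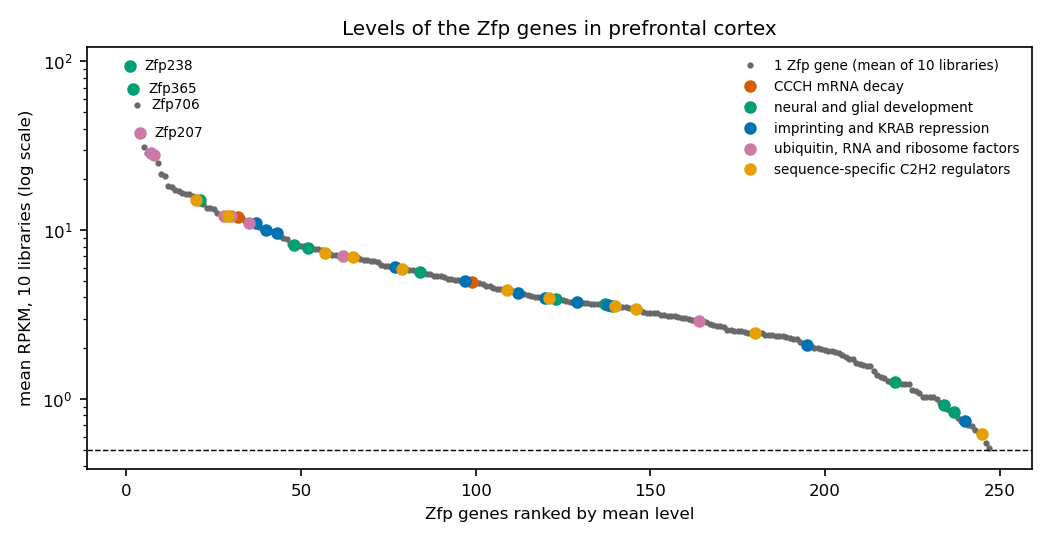
Mean RPKM over the 10 libraries (log scale) of each of the 247 Zfp genes, ranked from highest to lowest, with the genes of 5 role lists coloured and the level rule of 0.5 RPKM dashed. Zfp238, at 93.7 RPKM, leads, and the curve passes through its median at 3.89 RPKM.

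The question put to these genes is which of them differ in adult cortex after limited nesting. No Zfp gene passed an adjusted p of 0.05 in the limma test over all 14642 rows, where the share called was 0.0%. limma-voom on the recovered reads also called 0 Zfp genes. The lowest adjusted p of a Zfp gene was 0.133. Before adjustment, 33 of the 247 genes (13.4%) had a p under 0.05, against 20.4% of all rows tested. The 33 were unequal in direction: 27 had a lower mean log level in ELS (10.9% of the Zfp genes, against 10.3% of all rows) and 6 a higher one (2.43%, against 10.1% of all rows). The share of lower genes was thus near that of the whole table, and the share of higher genes was the smaller one. Tissue samples are the replicates here, and the p-values set each group difference against the spread between these samples. Whether the rats share litters is not given, so the samples may not be independent.

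Differences were small for most of the family. The log2 fold change of ELS over control, fitted on log2(RPKM + 0.1), had a median of -0.03 over the Zfp genes, with quartiles of -0.14 and 0.06, against a median of 0.00 over all rows tested. Of the Zfp genes, 143 (57.9%) lay below 0, against 49.4% of all rows, and 218 (88.3%) lay within 1.2-fold of no difference, against 79.2% of all rows. At least 1.5-fold lower in ELS were 5 genes, Zfp871, Zfp704, Zfp397, Zfp26 and Zfp536 (2.02%, against 4.0% of all rows), and at least 1.5-fold higher was none, against 1.5% of all rows. The summed RPKM of the Zfp genes ran from 1563 to 1624 in the ELS libraries and from 1602 to 1694 in the control libraries, so these sums overlapped.

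**Figure D2:**
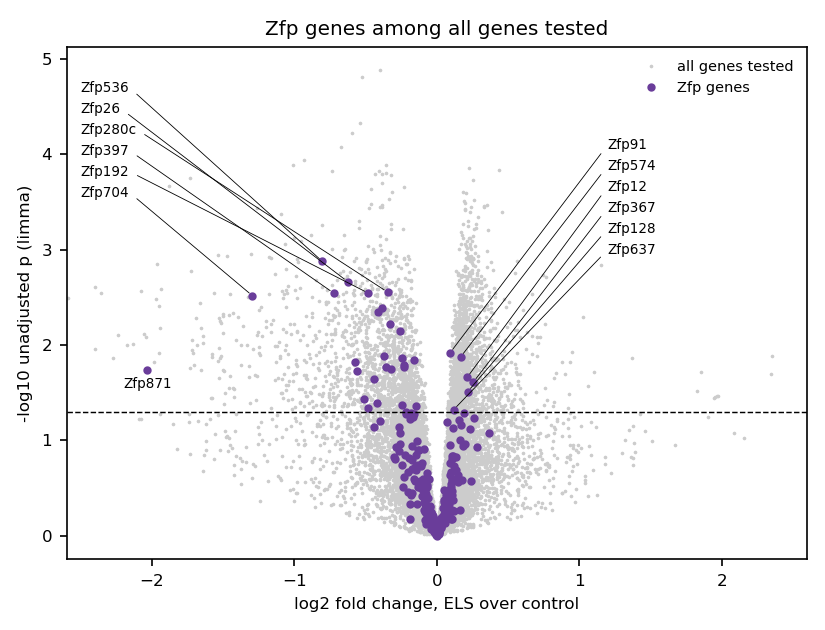
Fitted log2 fold change (ELS over control) against -log10 of the unadjusted limma p, for all 14642 rows tested (grey, 6 of them outside the plotted range) and the 247 Zfp genes (purple), with the 0.05 threshold dashed. The Zfp genes above the line lie mostly on the left: 27 are lower and 6 higher in ELS.

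The groups did not overlap in 9 Zfp genes. Every ELS library was below every control library in Zfp536, Zfp280c, Zfp329, Zfp516 and Zfp423 (2.02% of the Zfp genes, against 2.6% of all rows). Every ELS library was above every control library in Zfp91, Zfp574, Zfp717 and the Zfp128 row ENSRNOG00000031113 (1.62%, against 3.08% of all rows). Zfp329, Zfp516 and Zfp717 are named here for this count, after their values were seen. Zfp516, a cofactor of brown fat genes in mice, lay at 1.98 to 2.30 RPKM in ELS and 2.32 to 2.77 RPKM in control libraries. Zfp717 lay at 16.4 to 17.4 RPKM in ELS and 15.6 to 16.4 RPKM in control libraries, and Zfp329 at 1.25 to 1.60 RPKM in ELS and 1.66 to 1.84 RPKM in control libraries.

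Zfp536 (ENSRNOG00000014163), a repressor of neuronal differentiation in mouse cell models, had the lowest p of the family. Its levels were 2.46, 3.65, 1.73, 2.73 and 2.42 RPKM in ELS replicates 1 to 5, against 3.88, 5.77, 5.10, 4.35 and 3.66 RPKM in control replicates 1 to 5. The highest ELS library (replicate 2) reached almost the lowest control library, and the groups did not overlap. The fitted log2 fold change was -0.80 ± 0.19 (SE), a level 1.75-fold higher in control, with an adjusted p of 0.133. Next was Zfp26 (ENSRNOG00000025937), a C2H2 gene that RefSeq places in a run of zinc finger genes. It had 1.81, 2.80, 1.39, 1.79 and 1.66 RPKM in ELS libraries, against 3.16, 2.95, 2.70, 2.79 and 2.89 RPKM in control libraries. ELS replicate 2 alone lay within the control range, and the log2 fold change was -0.63 ± 0.16 (SE) with an adjusted p of 0.133. Their promoters are printed because these genes stood first among the lower ones. They are the 250 bases before the RefSeq start in the rat build GRCr8, chr1:99599044-99599293 on the minus strand for Zfp536 and chr8:27261650-27261899 on the minus strand for Zfp26, 5′ to 3′, with capitals marking the CCAAT motif on either strand.
Zfp536: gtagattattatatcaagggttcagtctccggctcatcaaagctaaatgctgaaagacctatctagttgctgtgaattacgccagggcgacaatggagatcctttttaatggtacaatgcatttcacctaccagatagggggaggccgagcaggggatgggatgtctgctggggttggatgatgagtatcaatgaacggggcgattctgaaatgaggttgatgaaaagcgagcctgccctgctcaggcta
Zfp26: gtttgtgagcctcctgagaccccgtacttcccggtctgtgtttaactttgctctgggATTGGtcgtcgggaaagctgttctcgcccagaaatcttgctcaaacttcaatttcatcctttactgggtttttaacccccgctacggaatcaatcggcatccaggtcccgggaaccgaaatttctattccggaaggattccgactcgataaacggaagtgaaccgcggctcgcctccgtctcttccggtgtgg

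Zfp704 (ENSRNOG00000054426), at a low level, had the largest fold among the 6 lower genes of lowest p. It stood at 0.662, 1.94, 0.470, 0.730 and 0.535 RPKM in ELS libraries, against 2.57, 2.57, 1.49, 1.43 and 2.31 RPKM in control libraries. ELS replicate 2 was again the exception, inside the control range, while the other 4 ELS libraries lay below it. Its log2 fold change was -1.30 ± 0.34 (SE), with an adjusted p of 0.133. Zfp397 had 1.96, 2.86, 1.38, 1.41 and 1.93 RPKM in ELS libraries, against 2.90, 3.63, 2.52, 3.33 and 3.28 RPKM in control libraries, a log2 fold change of -0.72 ± 0.19 (SE). For Zfp192, listed in RefSeq as Zkscan8, the levels were 2.10, 3.01, 2.04, 1.94 and 2.14 RPKM in ELS libraries, against 3.48, 3.19, 2.66, 3.14 and 3.25 RPKM in control libraries, a log2 fold change of -0.48 ± 0.12 (SE). Both genes repeated the pattern of 1 ELS library inside the control range. Zfp280c had 3.56, 4.14, 3.33, 3.28 and 3.46 RPKM in ELS libraries, against 4.57, 4.40, 4.22, 5.30 and 4.21 RPKM in control libraries, with a log2 fold change of -0.34 ± 0.09 (SE) and no overlap. The adjusted p was 0.133 for Zfp397, Zfp192 and Zfp280c alike.

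The largest fold of the family was that of Zfp871 (ENSRNOG00000004947), named for its size after its values were seen. It had 0.191, 1.86, 0.0466, 0.111 and 0.260 RPKM in ELS libraries, against 2.86, 1.95, 0.543, 0.566 and 2.71 RPKM in control libraries. Of the control libraries 3 were high and 2 low, and ELS replicate 2 was close to the high ones. The log2 fold change was -2.03 ± 0.73 (SE), with an adjusted p of 0.173 and a median of 25 reads per library. RefSeq's gene table held no entry of that symbol.

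In the 6 higher genes of lowest p the differences were smaller, and in most of them the levels were steadier. Zfp91 (ENSRNOG00000012524), a ubiquitin ligase, had 29.5, 28.9, 29.7, 29.3 and 29.8 RPKM in ELS libraries, against 27.8, 27.1, 27.2, 27.6 and 28.1 RPKM in control libraries. The groups did not overlap, although the log2 fold change was only 0.09 ± 0.03 (SE), with an adjusted p of 0.158. Zfp574 (ENSRNOG00000055761) had 13.8, 14.3, 14.8, 13.9 and 14.2 RPKM in ELS libraries, against 13.7, 13.6, 12.5, 11.4 and 12.2 RPKM in control libraries. Its lowest ELS and highest control libraries nearly met, and the log2 fold change was 0.17 ± 0.06 (SE), with an adjusted p of 0.162. The promoters of this pair, chr1:219352419-219352668 on the minus strand for Zfp91 and chr1:89799977-89800226 on the plus strand for Zfp574 (GRCr8), are set out the same way for contrast with those of Zfp536 and Zfp26, with capitals marking the GC box GGGCGG, the CCAAT box and the motif of the factor NRF1 on either strand.
Zfp91: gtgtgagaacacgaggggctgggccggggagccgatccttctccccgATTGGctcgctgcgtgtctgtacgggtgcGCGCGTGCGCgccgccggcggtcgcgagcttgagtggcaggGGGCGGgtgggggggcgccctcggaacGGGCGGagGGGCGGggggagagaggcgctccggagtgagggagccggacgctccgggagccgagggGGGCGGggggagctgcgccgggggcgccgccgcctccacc
Zfp574: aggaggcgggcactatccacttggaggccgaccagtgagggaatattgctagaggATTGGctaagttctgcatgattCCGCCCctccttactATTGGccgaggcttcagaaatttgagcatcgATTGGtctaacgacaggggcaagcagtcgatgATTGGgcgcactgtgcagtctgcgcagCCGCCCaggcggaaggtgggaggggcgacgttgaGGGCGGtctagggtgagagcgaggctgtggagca

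The other 4 were Zfp12, at 5.89 ± 0.514 RPKM in ELS and 5.06 ± 0.417 RPKM in control (SD, n = 5 each), Zfp367, at 5.62 ± 0.379 RPKM in ELS and 4.72 ± 0.622 RPKM in control, the Zfp128 row ENSRNOG00000031113, at 3.09 ± 0.260 RPKM in ELS and 2.64 ± 0.212 RPKM in control, and Zfp637, at 32.5 ± 2.00 RPKM in ELS and 29.9 ± 1.48 RPKM in control. Their log2 fold changes were 0.21 ± 0.08, 0.26 ± 0.10, 0.22 ± 0.09 and 0.12 ± 0.05 (SE), in the same order, with adjusted p of 0.182 to 0.240. Only the Zfp128 row was free of overlap between the groups. A second row of the symbol Zfp128 (ENSRNOG00000031459) stood at 3.01 ± 0.258 RPKM in ELS and 2.89 ± 0.185 RPKM in control, within 1 SE of no difference, and reads shared between such copies could have been split by the counting.

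**Figure D3:**
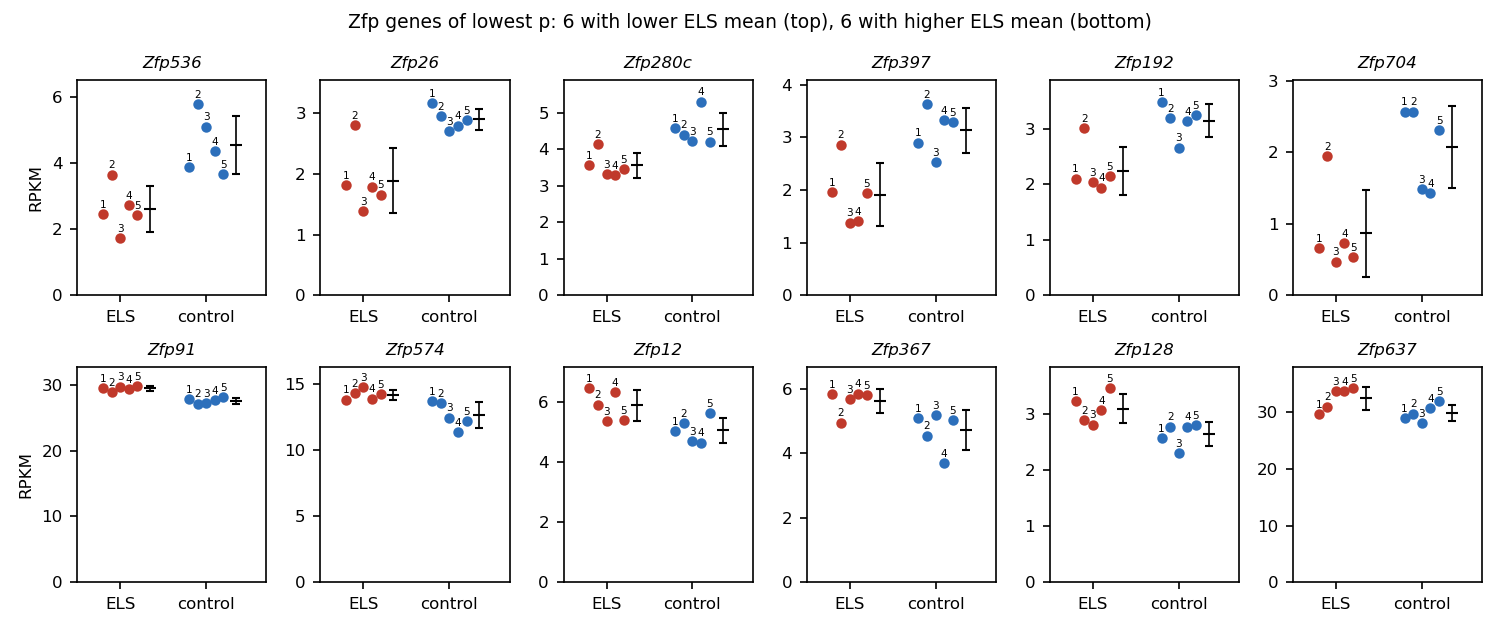
RPKM in each library (points, numbered by replicate; ELS red and left, control blue and right) with mean and SD (black), for the 6 lower (top row) and 6 higher (bottom row) Zfp genes of lowest p. In Zfp26, Zfp397, Zfp192 and Zfp704 the ELS point inside the control range is replicate 2, and in Zfp91 the groups, at 28.9 to 29.8 and 27.1 to 28.1 RPKM, do not meet.

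The role lists were chosen with earlier results of these data known, so no conclusion is drawn from how they rank. By role, the list of neural and glial development genes held the most with an unadjusted p under 0.05. Of its 12 genes 4 were lower and 0 higher, against 10.3% lower and 10.1% higher over all rows, with a median log2 fold change of -0.15, and none passed the adjusted threshold. The 4 were Zfp536, Zfp462, Zfp423 and Zfp521. Zfp462, a chromatin factor tied to heterochromatin, had 3.83, 4.02, 2.63, 3.14 and 3.29 RPKM in ELS libraries, against 4.58, 4.92, 4.69, 4.01 and 4.25 RPKM in control libraries, a log2 fold change of -0.41 ± 0.11 (SE) with an adjusted p of 0.133. The groups met only at ELS replicate 2 and control replicate 4. Zfp423, a SMAD-binding factor needed for cerebellar development, had 5.29, 5.61, 5.44, 5.10 and 5.13 RPKM in ELS libraries, against 5.67, 5.76, 6.23, 6.30 and 5.85 RPKM in control libraries. It did not overlap between the groups, with a log2 fold change of -0.16 ± 0.06 (SE) and an adjusted p of 0.165. Zfp521, which drives neural fate in mouse embryonic stem cells, lay at 0.700 ± 0.118 RPKM in ELS and 0.979 ± 0.224 RPKM in control (SD, n = 5 each), with overlap and an adjusted p of 0.226.

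In Zfp488 and Zfp24, genes of that list linked to oligodendrocytes, the groups overlapped. Zfp488, an oligodendrocyte factor, lay at 1.18 ± 0.293 RPKM in ELS and 1.35 ± 0.299 RPKM in control, and Zfp24, needed for myelination in mice, at 7.81 ± 0.252 RPKM in ELS and 8.63 ± 1.11 RPKM in control (SD, n = 5 each). Zfp335, required for neurogenesis, was at 15.1 RPKM in both groups. Zfp804a, a schizophrenia risk gene in humans, lay at 3.04 to 3.56 RPKM in ELS and 2.65 to 5.05 RPKM in control, where the control libraries were the more spread.

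Among the CCCH genes of mRNA decay, Zfp36l1, which like Zfp36 promotes decay of AU-rich messages, had 10.8, 11.8, 10.98, 10.4 and 11.3 RPKM in ELS libraries, against 14.4, 13.2, 10.995, 11.9 and 14.6 RPKM in control libraries. Its log2 fold change was -0.23 ± 0.08 (SE), with an adjusted p of 0.170, and control replicate 3 was the library that fell in the ELS range. Zfp36 (tristetraprolin), which is also an immediate early gene, had 5.66, 2.93, 4.83, 5.02 and 5.68 RPKM in ELS libraries, against 5.35, 6.01, 5.45, 2.92 and 5.83 RPKM in control libraries, 1 low library in each group. Of the 11 genes of the CCR4-NOT deadenylase, to which both proteins bring their targets, 1 was higher and 2 were lower at an unadjusted p under 0.05 (10.1% and 10.3% over all rows), with a list median of 0.00 on the log2 scale. The lower ones were Cnot6 (12.5 RPKM on average in ELS and 14.9 RPKM in control, log2 fold change -0.25 ± 0.07, adjusted p = 0.133) and Cnot6l (2.45 RPKM in ELS and 3.66 RPKM in control, log2 fold change -0.60 ± 0.19, adjusted p = 0.151). The higher one was Cnot2, with a log2 fold change of 0.10 ± 0.04.

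The list of KRAB repression and imprinting genes held 11 rows, from 10 of its 16 symbols. Of these rows 0 had an unadjusted p under 0.05 in either direction, against 20.4% of all rows. The median log2 fold change was -0.04. KRAB genes outside this list were not counted here. Zfp57, which with KAP1 maintains methylation at imprinted loci, had 6.16, 5.74, 6.09, 5.70 and 5.82 RPKM in ELS libraries, against 5.34, 6.44, 6.86, 7.66 and 4.88 RPKM in control libraries. The ELS values sat within the wider control range. Zfp445, with the same role in mice and humans, lay at 9.51 ± 1.73 RPKM in ELS and 10.6 ± 1.04 RPKM in control (SD, n = 5 each), and Zfp110, a partner of the p75 neurotrophin receptor, at 9.27 ± 0.445 RPKM in ELS and 9.88 ± 0.520 RPKM in control. Of the 20 genes of the KAP1 co-repressor list, 0 were higher and 2 lower at an unadjusted p under 0.05, against 10.1% higher and 10.3% lower over all rows, with a median of -0.03. KAP1 itself (Trim28) lay at 33.7 ± 1.55 RPKM in ELS and 33.2 ± 2.10 RPKM in control, and Setdb1 at 8.37 ± 0.273 RPKM in ELS and 8.62 ± 0.751 RPKM in control, both within 1 SE of no difference. The 2 lower ones were Cbx5, an HP1 protein, with a log2 fold change of -0.31 ± 0.14 (SE) and an adjusted p of 0.241, and the deacetylase Hdac1, with -0.15 ± 0.06 (SE) and an adjusted p of 0.222.

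Of the 8 ubiquitin, RNA and ribosome factors, Zfp91 was higher and Zfp106 lower at an unadjusted p under 0.05, near the 10.1% and 10.3% of all rows. Zfp106, an RNA-binding protein needed by motor neurons in mice, had 25.7, 33.7, 13.3, 19.4 and 23.2 RPKM in ELS libraries, against 35.1, 32.8, 29.7, 31.0 and 34.4 RPKM in control libraries. Its ELS libraries were far more spread than the control ones, ELS replicate 2 was inside the control range, and the log2 fold change was -0.56 ± 0.20 (SE) with an adjusted p of 0.174. Zfp598, which marks collided ribosomes, lay at 10.7 ± 0.928 RPKM in ELS and 11.5 ± 1.02 RPKM in control, Zfp207 at 37.1 ± 1.27 RPKM in ELS and 37.8 ± 2.84 RPKM in control, and Zfp638, which in human cells silences unintegrated retroviral DNA, at 11.7 ± 0.950 RPKM in ELS and 12.6 ± 1.03 RPKM in control (SD, n = 5 each).

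In the list of 11 sequence-specific C2H2 regulators 3 were lower and 0 higher at an unadjusted p under 0.05 (10.3% and 10.1% over all rows), with a median log2 fold change of -0.07. Zfp148, which binds GC-rich promoters, had 10.1, 13.5, 8.95, 10.2 and 10.2 RPKM in ELS libraries, against 14.2, 14.4, 12.02, 13.0 and 15.4 RPKM in control libraries. The log2 fold change was -0.39 ± 0.11 (SE), with an adjusted p of 0.133, and once more ELS replicate 2 was the 1 library inside the control range. In its paralogue Zfp281 the groups overlapped, at 7.56 ± 0.424 RPKM in ELS and 7.09 ± 1.10 RPKM in control (SD, n = 5 each). Zfp652 had 3.49, 3.51, 1.54, 2.56 and 2.80 RPKM in ELS libraries, against 4.27, 4.30, 3.43, 4.46 and 3.80 RPKM in control libraries, with a log2 fold change of -0.58 ± 0.20 (SE) and an adjusted p of 0.166. The groups met where ELS replicates 1 and 2 passed control replicate 3. Zfp219 lay at 6.63 ± 0.529 RPKM in ELS and 7.35 ± 0.328 RPKM in control, and Zfp410, an activator of the remodeller gene Chd4, at 6.03 ± 0.265 RPKM in ELS and 5.76 ± 0.472 RPKM in control.

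**Figure D4:**
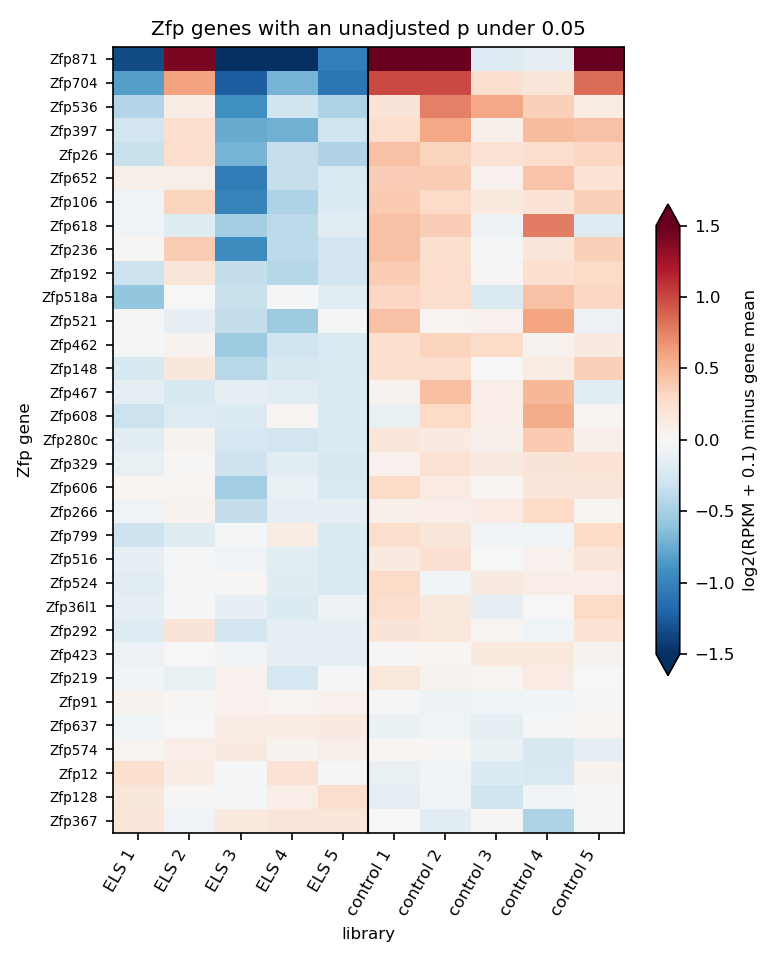
Deviation of log2(RPKM + 0.1) from the gene's mean over 10 libraries (colour, limited to 1.5 either way) for the 33 Zfp genes with an unadjusted p under 0.05, ELS libraries left of the line and control libraries right of it. In the 27 lower genes (upper rows) the ELS columns are mostly blue, except replicate 2, which was no lower than the lowest control in 17 of them.

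The ELS libraries were not alike in these genes. Of the 27 lower genes, the level of ELS replicate 2 was no lower than the lowest control in 17 (63.0%), against 3 to 5 genes for each of the other ELS libraries. The same library led over all 1513 lower rows (53.0%, against 11.1% to 24.2% for the others). ELS replicate 3 was the lowest of the 10 libraries in 15 of the 27, and in 50 of all 247 Zfp genes (20.2%, against 12.7% of all rows). Without ELS replicate 2, limma called 8 Zfp genes at an adjusted p under 0.05, all lower, against 2.1% lower and 0.929% higher over all rows. They were Zfp536, Zfp26, Zfp280c, Zfp397, Zfp192, Zfp704, Zfp148 and Zfp871. ELS replicate 2 was the highest ELS library in each of these 8 genes. Leaving it out by itself moves their log2 fold changes further below 0. With any other single library left out, limma called 0 Zfp genes. In the fit without ELS replicate 2, Zfp26 had a log2 fold change of -0.77 (adjusted p = 0.0136), Zfp704 of -1.61 (adjusted p = 0.0151) and Zfp536 of -0.93 (adjusted p = 0.0272). With all 10 libraries, neither limma nor unweighted limma-voom called any of the 8. Limma-voom with sample quality weights, which kept all 10 libraries and gave control replicate 4 a weight of 0.170, called 14 Zfp genes, all lower, against 4.42% lower and 2.01% higher over all rows. The 14 hold 7 of the 8. Zfp871, the other one, had an adjusted p of 0.0554 there.

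Control replicate 4 stood apart from the other control libraries in 5 of the named Zfp genes. Zfp189, linked to stress resilience in mouse prefrontal cortex, had 5.54, 2.27, 4.30, 2.26 and 2.89 RPKM in ELS libraries, against 2.31, 2.52, 3.11, 11.3 and 3.36 RPKM in control libraries. That 1 control library was above every other one of either group. The log2 fold change was -0.19 ± 0.42 (SE) with all 10 libraries (adjusted p = 0.828). Without control replicate 4 it was 0.21 (adjusted p = 0.688). Zfp238 had 91.2, 84.9, 96.4, 108 and 97.8 RPKM in ELS libraries, against 77.4, 67.0, 73.4, 153 and 88.5 RPKM in control libraries. With all 10 libraries its log2 fold change was 0.12 (adjusted p = 0.753). Without control replicate 4 it was 0.32 (adjusted p = 0.102). Leaving out ELS replicate 2 as well gave 0.36 (adjusted p = 0.0337). In that fit Zfp238 was the 1 higher Zfp gene called, beside 12 lower ones, against 3.5% higher and 4.12% lower over all rows. The libraries left out were the lowest ELS one and the highest control one for this gene, which by itself raises the log2 fold change. Zfp365 had 70.3, 71.5, 78.6, 77.0 and 75.6 RPKM in ELS libraries, against 67.2, 63.6, 69.5, 43.2 and 71.8 RPKM in control libraries. Its log2 fold change was 0.26 ± 0.12 (SE) with an adjusted p of 0.260, and 0.13 without control replicate 4. Zfp703, a corepressor, had 7.98, 8.21, 7.88, 7.54 and 8.09 RPKM in ELS libraries, against 8.13, 9.11, 8.53, 4.61 and 8.16 RPKM in control libraries. Over the 247 genes control replicate 4 was the highest library in 58 (23.5%, against 23.8% of all rows) and the lowest in 35 (14.2%, against 23.8% of all rows). Of 14 immediate early genes, 1 (Egr3, log2 fold change 0.38 ± 0.15, adjusted p = 0.210) had an unadjusted p under 0.05, against 20.4% of all rows.

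**Figure D5:**
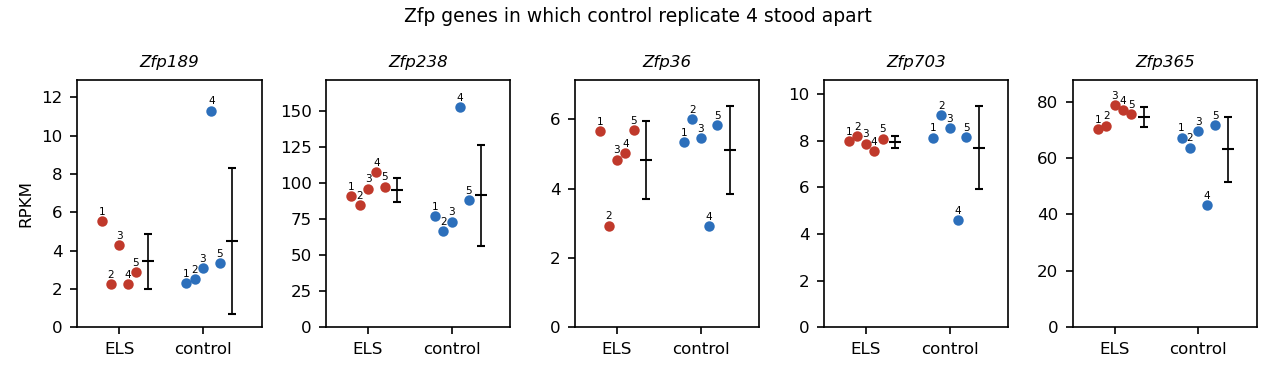
RPKM in each library (points, numbered by replicate; ELS red and left, control blue and right) with mean and SD (black), for 5 Zfp genes in which control replicate 4 stood apart. It is high in Zfp189 (11.3 RPKM) and Zfp238 (153 RPKM) and low in Zfp36 (2.92 RPKM), Zfp703 (4.61 RPKM) and Zfp365 (43.2 RPKM).

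Markers of several cell types also differed in level between the groups. Over all rows 49.4% lay below and 50.6% above 0 on the log2 scale. All 12 myelin and oligodendrocyte markers had a lower mean log level in ELS, with summed levels of 909.5 to 1195 RPKM in ELS libraries and 1209 to 2466.5 RPKM in control libraries, and so were 7 of 7 oligodendrocyte precursor markers (59.9 to 71.4 RPKM in ELS and 73.0 to 96.7 RPKM in control), 7 of 7 astrocyte markers (1079.5 to 1210.3 RPKM in ELS and 1237 to 1478 RPKM in control) and 8 of 8 microglial markers (88.2 to 105.9 RPKM in ELS and 100.5 to 119.6 RPKM in control). All 4 blood rows were lower, at 214 to 438.0 RPKM in ELS and 412 to 981 RPKM in control. The 6 endothelial and pericyte markers, also all below 0 on the log2 scale, overlapped at 73.5 to 81.6 RPKM in ELS and 67.9 to 85.9 RPKM in control. Markers of excitatory neurons were above 0 in 7 of 7 (2035 to 2364 RPKM in ELS and 1868 to 2116 RPKM in control), as were those of interneurons in 7 of 7 (341 to 386 RPKM in ELS and 194 to 369.9 RPKM in control). Between the groups, the sums of the myelin, precursor and astrocyte markers did not overlap. Those of the microglial, blood, endothelial, excitatory and interneuron markers did. Control replicate 4 stood apart in some of these sums, and the counts were also taken without it, a choice made after seeing the data. The other 4 control libraries had 1209 to 1548 RPKM of the myelin markers and 298.7 to 369.9 RPKM of the interneuron markers. Of the excitatory markers they had 1868 to 2004 RPKM, below every ELS library. The microglial, blood, endothelial and interneuron sums still overlapped between the groups without control replicate 4. Without that library 12 of 12 myelin markers were still below 0, 7 of 7 excitatory markers above 0, 5 of 7 interneuron markers above 0 and 5 of 6 endothelial markers below 0. None of these markers was at 0, and none passed an adjusted p of 0.05. In such bulk tissue fewer cells of a type and less RNA per cell cannot be told apart, and the part of these markers in the Zfp values was not tested.

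In the genome the Zfp genes lie in groups. RefSeq's GRCr8 gene table matched 236 of the 247 rows, 229 by symbol and 7 by an older name. A further 8 rows share 4 symbols and 3 had no match. Of the 236, 99 (41.9%) had a gene with a zinc finger family symbol as a direct protein-coding neighbour, against 3.6% of all 23154 protein-coding genes. Signs were mixed among neighbours: in 23 of the 41 adjacent pairs of Zfp genes both log2 fold changes had the same sign. Zfp26, at -0.63, lies between Zfp426 (0.01) and Zfp560 (0.03), while Zfp329 (-0.33) lies next to Zfp110 (-0.09).

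RefSeq promoters were at hand for 196 Zfp genes and 19005 protein-coding genes. In the 250 bases before the start, Zfp promoters held a median of 13 CG dinucleotides and 56.0% G+C, against 9 and 54.8% over all promoters. The GC box GGGCGG, searched on both strands like each motif here, was in 43.4% of Zfp promoters and 40.3% of all. CCAAT was in 37.8% of Zfp promoters and 35.5% of all, and the NRF1 motif, a pair of GCGC blocks with any 2 bases between them, in 10.7% of Zfp promoters and 6.9% of all. TATAAA was in 8.2% of Zfp promoters and 12.3% of all, and the E-box CACGTG in 5.1% of Zfp promoters and 6.4% of all. Among the promoters printed above, that of Zfp536 held none of the 5 motifs and 7 CG dinucleotides and that of Zfp26 held 1 CCAAT and 19 CG dinucleotides. Zfp91 had 4 GC boxes, 1 CCAAT, 1 NRF1 motif and 35 CG dinucleotides, and Zfp574 had 3 GC boxes, 4 CCAAT and 15 CG dinucleotides. These matches describe the letters only.

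A related family, not fully separate from this one, gives a yardstick. RefSeq lists the Zfp238, Zfp161 and Zfp295 rows as Zbtb18, Zbtb14 and Zbtb21. The 33 Zbtb rows, whose proteins join C2H2 fingers to a BTB domain, had 2 higher and 2 lower genes at an unadjusted p under 0.05 (6.06% each, against 10.1% and 10.3% of all rows) and a median log2 fold change of 0.00. The difference between the families was not tested.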

How the data were processed

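Poly(A) RNA of prefrontal cortex from 5 ELS and 5 control rats was sequenced with a stranded kit, 1 library per sample, per the labels. The authors deposited 1 table of RPKM values for 16041 Ensembl rat genes. STAR, featureCounts and the build rn6 stand in the submitters' processing notes; no version, strand setting or annotation release is given in the sources used here, so reads of antisense, overlapping or near-identical genes may be mixed or split. RPKM scales by library total and gene length only. Whole reads were recovered from the value steps for 100% of the 16015 rows above 0 (tolerance 0.002 reads); totals were 18838898 to 22311136 reads, which sets the precision of low genes.

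limma 3.58.1 (R 4.3.3) was run on log2(RPKM + 0.1) for the 14642 rows in which 5 or more libraries reached 0.5 RPKM (trend and robust moderation, two-sided, Benjamini-Hochberg over all rows; 1399 rows left out). The pseudocount understates differences of low genes. The fit was tested on simulated data. Named genes were the 6 higher and 6 lower of lowest p and the 6 of highest level. Those at the edge of the level rule and the members of the role lists were named too. Fold changes are given where they exceed 1 SE, or where another fit or a neighbouring gene is set beside them. Members and lists were chosen with earlier results of these data known. Alternatives were other pseudocounts, no filter, a filter of 1 RPKM in all 10 libraries, median-of-ratios scaling and a replicate block. Limma-voom on recovered reads was run with and without sample quality weights. Each library was left out in turn, and ELS replicate 2 and control replicate 4 together. Promoters and gene order are from RefSeq (GRCr8), a build other than that of the table, used by symbol only.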

Additional observations from a re-analysis of the deposited data

Results flagged for a closer look

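Of the 116 values tested (58 named Zfp genes in each group of 5), 10 held a library far from the others by Dixon's criterion (0.71 for 5 samples), and chance flags about 1 in 20 groups. In the ELS group, replicate 2 was the highest in Zfp192 (3.01 RPKM, the others 1.94 to 2.14), Zfp704 (1.94 RPKM, the others 0.470 to 0.730) and Zfp148 (13.5 RPKM, the others 8.95 to 10.2), and the lowest in Zfp367 (4.96 RPKM, the others 5.68 to 5.85). ELS replicate 4 was the highest in the Zfp37 row ENSRNOG00000046629 (1.04 RPKM, the others 0.655 to 0.753). In the control group, replicate 4 was the highest in Zfp238 (152.9 RPKM, the others 67.0 to 88.5) and Zfp189 (11.3 RPKM, the others 2.31 to 3.36). The same library was the lowest in Zfp365 (43.2 RPKM, the others 63.6 to 71.8), Zfp36 (2.92 RPKM, the others 5.35 to 6.01) and Zfp703 (4.61 RPKM, the others 8.13 to 9.11).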

How the results depend on the processing

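The count of Zfp genes at an adjusted p under 0.05, 0 in the limma fit, was 14 with limma-voom and sample quality weights, 13 without ELS replicate 2 and control replicate 4, and 0 to 8 with 1 library left out. Over all rows the counts were 942, 1116 and 0 to 444, the highest without ELS replicate 2. At an unadjusted p under 0.05 the higher Zfp genes, 6 in the main comparison, numbered 11 with the weights, 10 without both libraries, and 2 (without ELS replicate 4) to 12 (without control replicate 4) with 1 left out. The lower ones, 27, numbered 42 with the weights. The median log2 fold change kept its sign in every alternative tried, at -0.05 to -0.02. Of 642 values of the 34 named genes at least 1 SE from 0, 617 kept their direction and side of the threshold, 25 passed it (in 10 genes) and 0 turned. The 24 named genes within 1 SE of 0 were left out of this count, and signs did change among them. Without control replicate 4, the log2 fold change of Zfp189 went from -0.19 to 0.21 and that of Zfp703 from 0.08 to -0.09. Same-numbered libraries did not deviate together (correlations -0.082 to 0.066), and the main fit did not pair them. Correlations over so few libraries cannot exclude a shared litter or batch. With the replicate block there were 0 calls, 6 higher and 23 lower genes and a median of -0.03. Depth limits genes with few reads, such as Zfp871.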
